A study of Mus musculus with 82 samples.

Results

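The Wnt ligand genes known from the primitive streak and the tail bud, Wnt3, Wnt3a, Wnt5a, Wnt5b, Wnt8a and Wnt11, were followed through chromatin profiles of mouse stembryos. They were chosen by name, as 6 of the 21853 protein-coding genes annotated, and all 6 had called regions in the lists used. Stembryos, also called gastruloids, are aggregates of 300 mouse embryonic stem (mES) cells that elongate after a pulse of the Wnt agonist Chiron between 48 h and 72 h after aggregation. The wild-type (wt) cells were EmbryoMax 129/SVEV mES cells, and each sample was a pool of stembryos; from 108 h on, stembryos that failed to elongate were left out. Wt stembryos gave 61 of the 80 lists of called regions. There were 13 for H3K27ac, a mark of active promoters and enhancers, and 16 for the cohesin subunit RAD21, both from 48 to 168 h. There were 8 for total PolII and 8 for the cohesin loader NIPBL from 72 to 168 h. Elongating PolII (pSer2PolII) had 5 lists and H3K27me3 6, both from 72 to 144 h, CDX2 had 3 at 72, 96 and 120 h, and CTCF had 2 at 72 and 168 h. The other lists came from lines with CTCF binding sites (CBS) deleted or inserted in the HoxD cluster on chromosome 2, where none of these Wnt genes lies. For H3K27ac these were Del(CBS1) and Del(CBS1-2), with 2 lists each at 96 h and 120 h. For H3K27me3 there were 2 lists of Del(CBS1-5) at 96 h. The 6 mutant CTCF lists were Del(CBS1), Del(CBS1-2), Del(CBS1-5) and Del(CBS2) at 96 h, Del(CBS4) at 120 h and Ins(2xCBS-d4d8) at 144 h. The 3 mutant RAD21 lists were 2 of Del(CBS1) at 96 h and 1 of Del(CBS1-5) at 120 h. The mutant lines were CRISPR clones of the wt cells, with Del(CBS1-2) made on top of Del(CBS1), except that Del(CBS1-5) cells were derived from blastocysts of mice crossed to BL6 and CBA hybrids.

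Wnt ligands are secreted lipid-modified proteins, which Porcn acylates and Wls carries to the cell surface. They bind Frizzled (Fzd) receptors together with Lrp5 or Lrp6 to stabilise β-catenin, which acts on genes with TCF/LEF factors, or they signal through Ror and Ryk receptors without it. Wnt3 is needed to form the primitive streak, Wnt3a to make paraxial mesoderm and keep the tail bud growing, and Wnt8a takes part in early posterior patterning. Wnt5a, Wnt5b and Wnt11 are mostly known for the β-catenin-independent branch, which steers cell movement and axis elongation.

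For each gene, a window of the gene body plus 10 kb on each side was used, and a start was counted as occupied when a called region lay within 1 kb of it (mm10, the same build as GRCm38). Coverage is the percentage of the window that lay in called regions, so it records where regions were called and not how high they were. On the plus strand lie Wnt3 (chr11:103774150-103817957), Wnt5a (chr14:28504750-28527448), Wnt8a (chr18:34542313-34548273) and Wnt11 (chr7:98835112-98855195). On the minus strand lie Wnt3a (chr11:59248033-59290752) and Wnt5b (chr6:119432531-119544347). Part of the gene Nsf lies in the Wnt3 window, without its start. Wnt5a and Wnt11 have 2 groups of annotated starts and Wnt5b has 3. The Wnt5b window also holds the start of Fbxl14, so its coverage is partly that of another gene. Offsets below are in bases from the first start in the direction of the gene, negative upstream.

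The lists differed in size, from 17.2 to 40.2 Mb covered for H3K27ac, 7.45 to 14.9 Mb for PolII and 1.61 to 26.0 Mb for NIPBL in wt. H3K27ac at the starts of marker genes, in the list of each stage without a replicate number, moved with the labelled ages for part of the markers. It was at Nanog and Zfp42 (pluripotency) at 48 and 72 h alone, Tbx6 (presomitic mesoderm) not before 84 h, Meox1 (somites) not before 108 h, and T and Nkx1-2 (streak and tail bud) at all 9 stages. The other streak and tail bud markers differed: Mixl1 had it from 48 to 132 h, Eomes from 72 to 96 h and Cdx2 from 72 to 168 h. Fgf8 had it from 72 to 132 h and at 168 h, and the presomitic gene Hes7 from 84 to 120 h. The pluripotency genes Pou5f1 and Esrrb had it from 48 to 96 h and at 8 of 9 stages up to 168 h, and the presomitic gene Msgn1 already from 48 h and up to 132 h. Markers of other cell types were also acetylated, Foxa2 and Sox17 (endoderm) at 5 stages each, Pax6 and Sox1 (neural) at 9 and 8, and Gata4 and Elf5 (extraembryonic) at 3 and 1. In pooled stembryos, fewer cells of a type and less signal per cell cannot be told apart, and neither can a real absence and a region below the calling threshold.

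At 72 h and 84 h, just after the Chiron pulse, all 6 genes had H3K27ac and PolII at a start, and by 132 to 144 h Wnt5a and Wnt5b were the ones that still had both in every list. H3K27ac was at a start of 5, 6 and 6 genes at 48, 72 and 84 h, of 4 to 6 in the 3 lists of 96 h, of 4 at 108 h and of 2 or 3 in the 3 lists of 120 h. The lists of 132, 144 and 168 h had it at 4, 2 and 5 genes. PolII was at a start of 6, 6, 4, 3, 3, 2, 2 and 3 genes from 72 h to 168 h in stage order. With regions of −log10 q of at least 5 alone, H3K27ac was at 2, 4 and 6 genes at 48, 72 and 84 h and at 2 at 168 h, and PolII at 3 and 5 genes at 72 and 84 h. Over the same lists the share of all genes with an occupied start moved between 49.4% and 63.4% for H3K27ac and between 47.8% and 56.4% for PolII. Of the other Wnt ligand genes, all but Wnt8b and Wnt16 also had H3K27ac at a start at 72 h. Wnt2, Wnt4, Wnt7a, Wnt7b, Wnt9b and Wnt10a had it at 84 h as well. Wnt5a and Wnt5b had H3K27ac at a start in all 13 wt lists, as did 44.2% of all genes, and PolII in all 8, as did 45.1%; at the stricter limit they had H3K27ac in 10 and 12 of 13 lists and PolII in 7 of 8 each.

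**Figure D1:**
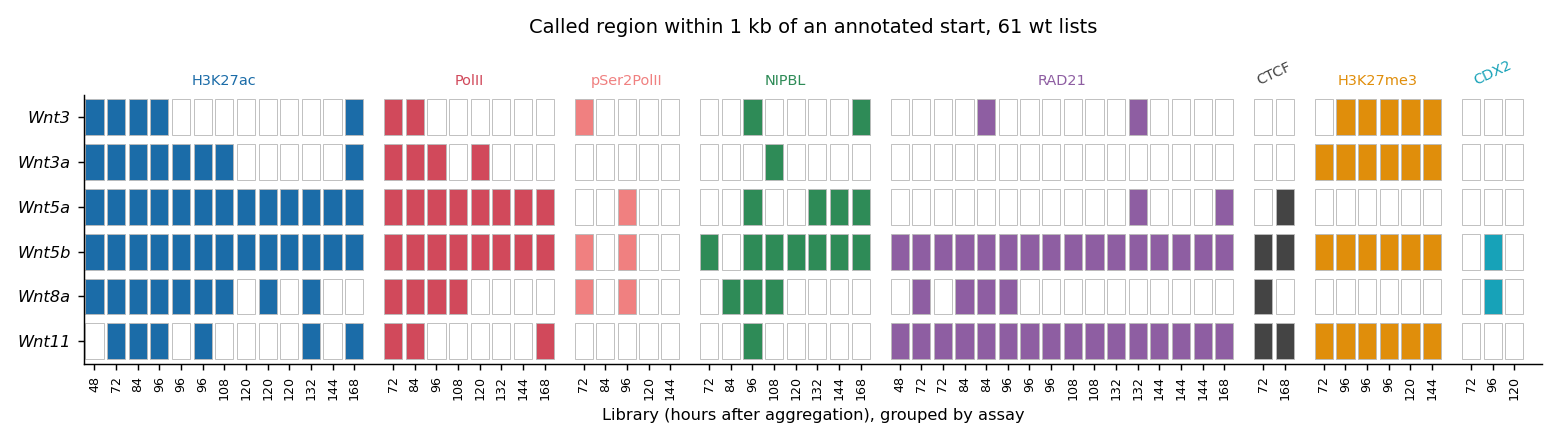
Presence of a called region within 1 kb of a start of each Wnt gene (rows) in every wt list of the 8 assays (columns, ordered by assay and by hours after aggregation). Filled cells mark a region; Wnt5a and Wnt5b are filled in all 13 H3K27ac and all 8 PolII lists, whereas Wnt3, Wnt3a, Wnt8a and Wnt11 are empty in the PolII list at 144 h.

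Wnt8a had the most widely covered window at 72 and 84 h and one of the emptiest at 144 and 168 h. H3K27ac covered 4.88%, 15.99% and 13.2% of its window at 48, 72 and 84 h. The 3 lists of 96 h had 13.1%, 14.7% and 15.99%, the list of 108 h had 8.98%, and the 3 lists of 120 h had 4.53%, 5.92% and 6.84%. At 132, 144 and 168 h the values were 4.33%, 0% and 1.42%, below all 3 lists of 120 h. PolII covered 12.3%, 6.80%, 1.95% and 0.624% at 72, 84, 96 and 108 h, and none of the window from 120 to 168 h. The PolII summit at the start of Wnt8a held 331, 203, 24 and 12 fragments at these 4 stages. That was 146, 94.8, 21.4 and 6.04 times the lowest background of each list, which is given in fragments per base and stands for depth. These lists had backgrounds of 1.12 to 2.26, and the 4 later lists, without the region, had backgrounds of 1.49 to 3.09. Elongating PolII covered 9.29%, 7.33%, 8.34%, 0.863% and 0% of the window at 72, 84, 96, 120 and 144 h, mostly past the end of the gene. The largest H3K27ac region outside the start lay 9687 bases downstream of it, was called in 12 of 13 wt lists and all 8 mutant lists, and overlapped a RAD21 region in 72 to 108 h lists and the CDX2 region of 120 h. No H3K27me3 region was called in the window in any of the 6 wt lists.

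**Figure D2:**
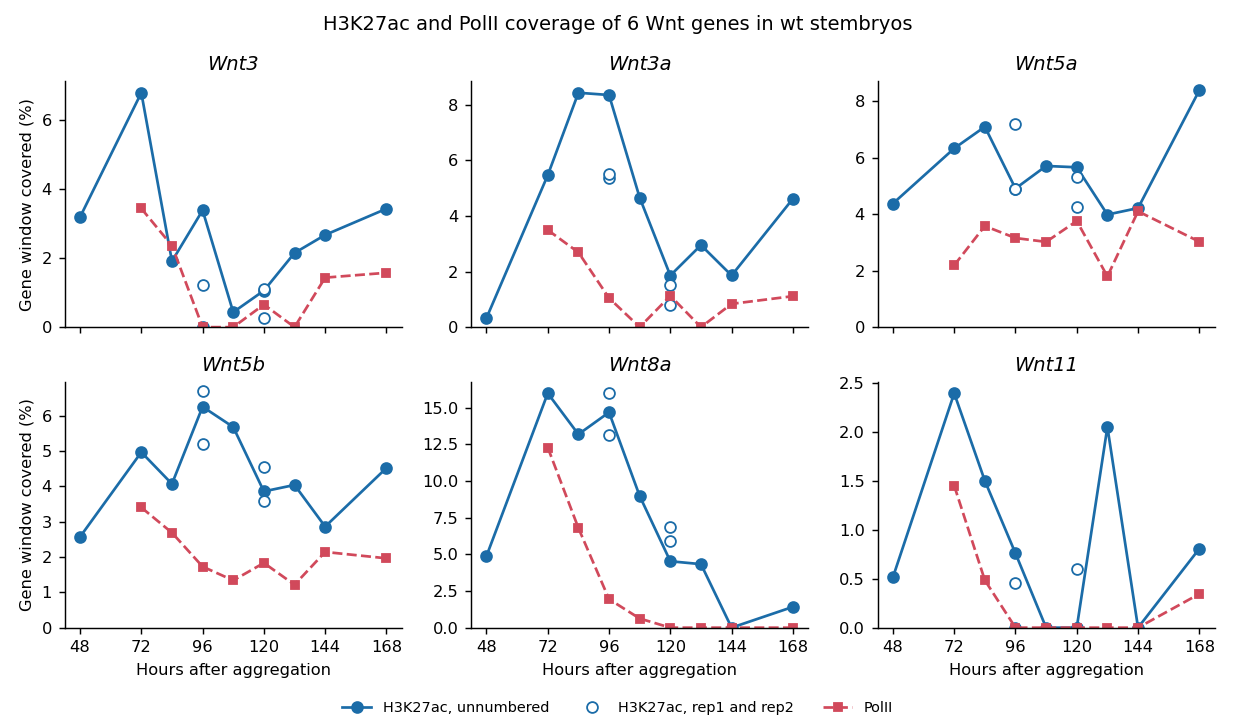
Percentage of each gene window (gene body plus 10 kb on each side) covered by called H3K27ac (circles) and PolII (squares) regions in wt stembryos, against hours after aggregation; each point is 1 list, open circles are the numbered replicates at 96 h and 120 h, and each panel has its own scale. Wnt8a goes from 15.99% (H3K27ac) and 12.3% (PolII) at 72 h to 0% for both at 144 h, and Wnt5a stays between 3.99% and 8.39% for H3K27ac.

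Wnt3a was acetylated most between 72 h and 108 h. H3K27ac covered 0.328%, 5.46% and 8.42% of its window at 48, 72 and 84 h. The 3 lists of 96 h had 5.36%, 5.49% and 8.34%, the list of 108 h had 4.65%, and the 3 lists of 120 h had 0.810%, 1.502% and 1.86%. Values of 2.95%, 1.86% and 4.61% followed at 132, 144 and 168 h. At its start H3K27ac was present in 8 of 13 wt lists, missing from all 3 lists at 120 h and from those at 132 h and 144 h. An intronic region, 26293 bases into the gene, was called in 12 of 13 wt lists and all 8 mutant lists. A pair of regions past the 3′ end, at 46414 and 47657, was called between 72 h and 120 h and in no list from 132 to 168 h. PolII covered 3.49% and 2.69% of the window at 72 and 84 h and between 0% and 1.13% afterwards, with a region at the start at 72, 84, 96 and 120 h. Elongating PolII covered 4.55%, 1.81% and 2.79% of the window at 72, 84 and 96 h and was not called later.

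Wnt3 had its widest PolII coverage in the list taken at the end of the pulse. PolII covered 3.43% and 2.36% of its window at 72 and 84 h, where it lay at the start. Later lists had no PolII at the start, and 0% (96, 108 and 132 h) to 1.57% (168 h) of the window. The highest PolII fold enrichment was nevertheless that of an intronic region at 36018, 6.70 at 168 h, against 4.11 at the start at 72 h. Elongating PolII covered 7.17% at 72 h and 0.310% at 96 h, and was not called in the other 3 lists. H3K27ac covered 3.18%, 6.78% and 1.91% of the window at 48, 72 and 84 h. The 3 lists of 96 h had 0%, 1.22% and 3.38%, the list of 108 h had 0.433%, and the 3 lists of 120 h had 0.270%, 1.06% and 1.11%. It covered 2.15%, 2.67% and 3.42% at 132, 144 and 168 h. At the start H3K27ac was called at 48, 72 and 84 h, in 1 of 3 lists of 96 h and again at 168 h. A region upstream, at −9106, was called in 7 of 13 wt lists between 72 h and 168 h. The 3 lists at 96 h, from 0% to 3.38%, spanned the values of every other stage except 72 h and 168 h.

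Wnt5a kept its H3K27ac and PolII and was the one gene of the 6 with more of its window covered by elongating PolII at 96 h than at 72 h. The highest pSer2PolII fold enrichment of Wnt5b (4.73) and Wnt8a (4.92) was also in the 96 h list. H3K27ac covered 4.38%, 6.33% and 7.10% of its window at 48, 72 and 84 h. The 3 lists of 96 h had 4.90%, 4.91% and 7.21%, the list of 108 h had 5.71%, and the 3 lists of 120 h had 4.27%, 5.31% and 5.66%. It covered 3.99%, 4.22% and 8.39% at 132, 144 and 168 h, the last being the highest of the 13 lists. PolII covered between 1.799% (132 h) and 4.103% (144 h), with a median of 3.09% over 8 lists. Elongating PolII covered 0%, 0%, 9.01%, 3.18% and 1.05% of the window at 72, 84, 96, 120 and 144 h. The pSer2PolII lists themselves covered 14.7, 2.08, 16.2, 9.22 and 2.33 Mb at these stages, so those of 72 h and 96 h were of like size. At the first Wnt5a start, the H3K27ac summit held 9.02 times the lowest background at 72 h and 42.6 times at 168 h.

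Wnt5b carried PolII at its distal start in every list and, mainly early, at its proximal start as well. The proximal start is the last of the 3, 94961 bases into the gene. Its PolII summit held 206, 89, 48 and 18 fragments at 72, 84, 96 and 108 h. No region was called there at 120, 132 and 144 h, and one of 12 fragments returned at 168 h. At the distal (first) start the PolII summit held 12 to 33 fragments in all 8 lists, 6.19 to 12.1 times the lowest background. Taken list by list, an H3K27ac region within 1 kb of the proximal start was called in 9 of 13 wt lists, none later than 120 h, with summits 10.0 times the lowest background at 48 h, 54.0 times in the highest list at 96 h and 11.9 times in the lowest list at 120 h. At the distal start it was called in 11 of 13 wt lists, missing at 48 h and in 1 list at 120 h. A broad region whose strongest summit lay 92191 bases into the gene, upstream of the proximal start, was called in all 13 wt and all 8 mutant lists. Over the whole window, H3K27ac covered 2.57%, 4.96% and 4.07% at 48, 72 and 84 h. The 3 lists of 96 h had 5.20%, 6.25% and 6.69%, the list of 108 h had 5.68%, and the 3 lists of 120 h had 3.59%, 3.86% and 4.53%. It covered 4.04%, 2.86% and 4.52% at 132, 144 and 168 h. These window values include the Fbxl14 start, which was acetylated in all 13 wt lists.

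Wnt11 had the lowest median acetylation of the 6 genes. Like Wnt5b, it had RAD21 within 1 kb of a start in all 16 wt lists. In single wt lists, 13.1% to 50.5% of all genes had RAD21 there, and the share with it in all 16 lists was not counted. H3K27ac covered 0% to 2.39% of its window, with a median of 0.514% over 13 wt lists, and was highest at 72 h (2.39%), 132 h (2.05%) and 84 h (1.499%). PolII was called at the first start at 72, 84 and 168 h, with 12 to 14 fragments, and nowhere in the window from 96 to 144 h. Elongating PolII and CDX2 had no region in the window in any list.

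The promoters of Wnt11 and Wnt5b are shown because, of the 4 genes with an entry in the RefSeq promoter table (GRCm38.p6, 300 bases around each start; Wnt5a and Wnt8a have none), these hold a match to the letters CTTTGAT bound by TCF/LEF factors, searched on both strands. Such a match was in 3.73% of the 32851 promoters of the table, and the CDX2 letters TTTATNG, also on both strands, were in 10.9%. The other entries of these 4 genes, at the second Wnt11 start, the first and second Wnt5b starts, Wnt3 and Wnt3a, hold no TCF/LEF match. Capitals mark the matches: in Wnt11 (chr7:98834862-98835161, plus strand, first start) ATCAAAG at −51, and in Wnt5b (chr6:119449337-119449636, minus strand, proximal start) TTTATGG at −222 and CTTTGAT at −71. A match describes the letters only.
Wnt11 first start: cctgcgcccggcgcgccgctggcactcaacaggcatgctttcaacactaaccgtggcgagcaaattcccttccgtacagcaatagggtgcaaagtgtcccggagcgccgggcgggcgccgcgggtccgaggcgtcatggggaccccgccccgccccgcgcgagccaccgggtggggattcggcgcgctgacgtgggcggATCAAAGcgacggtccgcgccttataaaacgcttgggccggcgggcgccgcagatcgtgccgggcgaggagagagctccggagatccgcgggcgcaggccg
Wnt5b proximal start: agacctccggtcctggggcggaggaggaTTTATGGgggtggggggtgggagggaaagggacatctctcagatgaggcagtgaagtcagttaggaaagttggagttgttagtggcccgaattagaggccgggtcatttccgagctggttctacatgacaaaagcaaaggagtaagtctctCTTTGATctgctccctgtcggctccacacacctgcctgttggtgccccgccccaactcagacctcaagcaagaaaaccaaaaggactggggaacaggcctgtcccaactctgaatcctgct

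No member passed the test for a relation of coverage with stage (exact two-sided permutation test of Spearman's rho, Benjamini-Hochberg adjustment over all genes tested). For H3K27ac over 9 stages, Wnt8a had rho = −0.80 (exact p = 0.0138, adjusted p = 0.0863), and the other 5 genes had rho between −0.24 and −0.05; 4.16% of the 18178 genes tested passed. For Wnt8a, Pearson's r was −0.63 (exact p = 0.0696), and rho was −0.96 (exact p = 0.00278, adjusted p = 0.0864) without the 48 h and 168 h lists. With lists cut to equal length the Wnt8a rho was −0.38 (exact p = 0.317, adjusted p = 0.601). For PolII over 8 stages, Wnt8a had rho = −0.94 (exact p = 0.00119, adjusted p = 0.651) and r = −0.78 (exact p = 0.0137); without the 72 h and 168 h lists rho was −0.94 (exact p = 0.0167). By this test 0% of the 15306 genes passed for PolII, with 761 at an unadjusted p under 0.05. The other genes had PolII rho values of −0.53 (Wnt3a), −0.46 (Wnt11), −0.36 (Wnt5b), −0.27 (Wnt3) and 0.19 (Wnt5a). For Wnt5a the H3K27ac rho of the whole window was not stable: it was 0.78 with equal list length (exact p = 0.0172, adjusted p = 0.165), 0.82 within 1 kb of starts (exact p = 0.0108, adjusted p = 0.150) and −0.82 without the 48 h and 168 h lists (exact p = 0.0341, adjusted p = 0.172). Within 1 kb of starts its PolII rho was 0.95 (exact p = 0.00114, adjusted p = 0.568).

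For NIPBL, which loads cohesin onto chromatin, Wnt5b had the highest rho of the 6 genes (0.86, exact p = 0.0107, adjusted p = 0.0801; r = 0.80, exact p = 0.0189), and 5.36% of the 17159 genes tested passed, all with positive rho. NIPBL covered 0.390% to 3.70% of the Wnt5b window, with a median of 2.31% over 8 lists, and with lists cut to equal length its rho was 0.14 (adjusted p = 0.866). The NIPBL lists at 72 and 84 h were the 2 smallest (2.53 and 1.61 Mb) and those at 144 and 168 h the 2 largest (26.0 and 23.7 Mb); the part of list size in the NIPBL values was not tested beyond the equal-length lists. NIPBL lay at the Wnt8a start at 84, 96 and 108 h alone, with its largest coverage, 6.14%, at 96 h. For RAD21, a cohesin subunit, averaged per stage over 8 stages, the highest rho was that of Wnt11 (0.74, exact p = 0.0458, adjusted p = 0.419; r = 0.57, exact p = 0.139). Within the 7 stages labelled under cell line the Wnt11 rho was 0.93 (exact p = 0.00675, adjusted p = 0.0845) and within the 7 labelled under cell type 0.54 (exact p = 0.236). By this test 0% of the 18568 genes passed for RAD21, with 2073 at an unadjusted p under 0.05.

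Between 96 h and 120 h, H3K27ac coverage fell over Wnt3a, Wnt8a and Wnt5b, and the change over Wnt5a, Wnt3 and Wnt11 did not pass. The 7 lists at each stage were 3 wt, 2 Del(CBS1) and 2 Del(CBS1-2). Wnt8a coverage was 13.1% to 15.99% at 96 h (median 14.1%) and 4.53% to 13.1% at 120 h (median 7.84%). Its mean went from 14.2% ± 0.960 to 8.40% ± 3.24 (SD, n = 7 each; difference −5.78 percentage points, exact two-sided permutation p = 0.000583, adjusted p = 0.00688). Wnt3a coverage was 5.36% to 8.34% at 96 h (median 6.09%) and 0.810% to 4.30% at 120 h (median 2.07%). Its mean went from 6.67% ± 1.30 to 2.49% ± 1.35 (SD, n = 7 each; difference −4.18, exact p = 0.000583, adjusted p = 0.00688). For both genes every list at 120 h lay below every list at 96 h, which held for 6.19% of the 17522 genes tested. Wnt5b coverage was 5.20% to 7.09% at 96 h (median 6.44%) and 3.59% to 6.32% at 120 h (median 5.24%), with overlapping lists. Its mean went from 6.33% ± 0.633 to 4.90% ± 0.962 (SD, n = 7 each; difference −1.43, exact p = 0.00816, adjusted p = 0.0368). With any one of 8 of the 14 lists left out, Wnt5b no longer passed, with adjusted p up to 0.0661; they were 2 wt (replicates 1 and 3), 2 Del(CBS1) and 1 Del(CBS1-2) (replicate 1) at 96 h and the 3 wt at 120 h. By the same exact test the differences were −1.13 for Wnt5a (adjusted p = 0.183), 0.51 for Wnt11 (adjusted p = 0.335) and 0.12 for Wnt3 (adjusted p = 0.912). Of all genes tested 25.1% passed in either direction and 19.4% with lower coverage at 120 h, so 3 of 6 was read against that share.

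Within wt alone (3 against 3, where the smallest possible exact p is 0.1) the differences were −8.85 percentage points for Wnt8a, −5.01 for Wnt3a, −2.05 for Wnt5b, −0.72 for Wnt3, −0.59 for Wnt5a and −0.20 for Wnt11. The wt lists covered 25.46 to 31.55 Mb at 96 h and 22.61 to 25.64 Mb at 120 h, the mutant lists 29.7 to 30.71 Mb and 29.39 to 35.26 Mb. With all 14 lists cut to equal length the differences were −8.32 for Wnt8a, −5.08 for Wnt3a, −1.53 for Wnt5b, −0.80 for Wnt5a, −0.34 for Wnt3 and −0.0036 for Wnt11. The part of list size in the wt values was not tested. At 96 h the order of mean coverage was Wnt8a, then Wnt5a (6.68%), Wnt3a (6.67%) and Wnt5b (6.33%), whose lists overlapped, then Wnt3 (1.12%) and Wnt11 (0.545%), whose lists also overlapped. At 120 h it was Wnt8a, Wnt5a (5.55%), Wnt5b (4.90%), Wnt3a, Wnt3 (1.24%) and Wnt11 (1.05%), and the lists of each pair of neighbours overlapped. Markers of cell types moved over the same 14 lists as well. The presomitic genes Msgn1 (difference −8.42), Hes7 (−4.33) and Tbx6 (−3.97), the streak and tail bud genes Cdx2 (−8.11), Nkx1-2 (−5.05) and Mixl1 (−4.15) and the pluripotency genes Nanog (−3.25) and Zfp42 (−1.60) fell by the same exact test, with adjusted p between 0.00688 and 0.0330. These were 3 of 4 presomitic and somitic, 3 of 6 streak and tail bud and 2 of 4 pluripotency markers, and none of the 6 endoderm, neural and extraembryonic markers passed. The part of cell composition in the Wnt values was not tested.

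**Figure D3:**
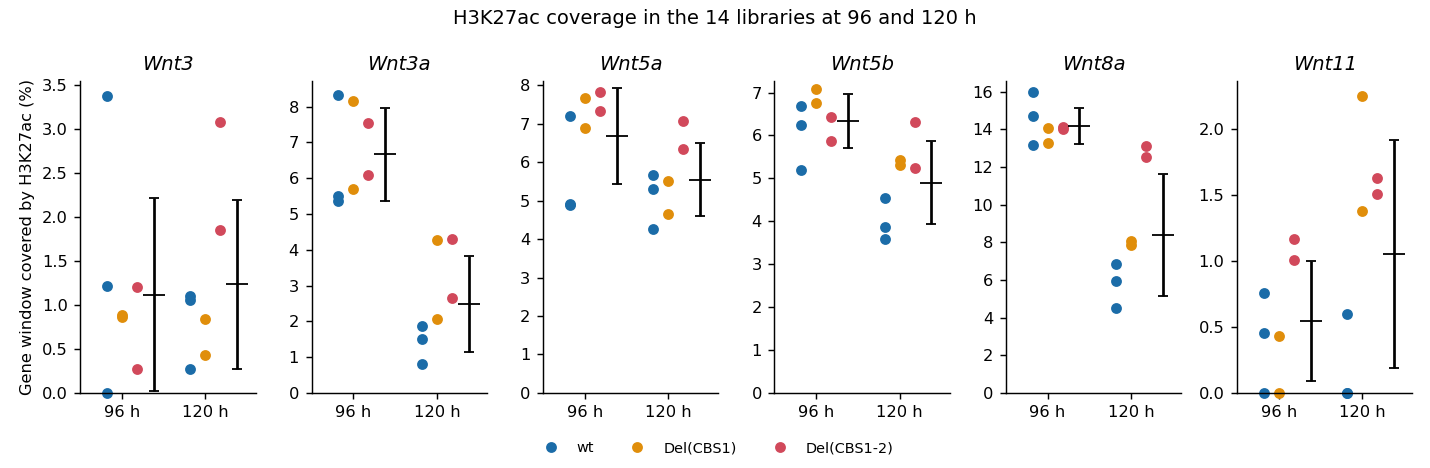
H3K27ac coverage of each gene window (percent) at 96 h and 120 h in 3 wt, 2 Del(CBS1) and 2 Del(CBS1-2) lists per stage; points are lists, and black bars the mean and SD of the 7 lists of a stage. For Wnt8a and Wnt3a all lists at 120 h lie below all lists at 96 h, and the 2 Del(CBS1-2) lists of Wnt8a at 120 h (12.5% and 13.1%) are the highest of that stage.

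The mutant lines asked whether deletions in HoxD changed acetylation elsewhere, and no member passed that test. Over both stages, mutant minus wt differences were 1.93 percentage points for Wnt8a, 1.29 for Wnt5a, 1.204 for Wnt3a, 1.04 for Wnt5b, 0.87 for Wnt11 and 0.01 for Wnt3, with adjusted p between 0.222 and 1 (exact permutation within stage). By this test 0% of the 17522 genes passed, with 2473 at an unadjusted p under 0.05. At 120 h, Wnt8a coverage was 4.53%, 5.92% and 6.84% in wt, 7.84% and 8.05% in Del(CBS1) and 12.5% and 13.1% in Del(CBS1-2). Wnt11 coverage at 120 h was 0%, 0% and 0.599% in wt and 1.38% to 2.25% in the 4 mutant lists. For 4 of the 6 genes, these and Wnt3a and Wnt5b, all 4 mutant lists lay above all 3 wt lists at 120 h, as they did for 18.5% of all genes tested, a count made after the values were seen. At that stage the mutant lists covered 29.4 to 35.3 Mb of the genome and the wt lists 22.6 to 25.6 Mb, with lowest backgrounds of 3.65 to 4.53 and 2.98 to 3.28 fragments per base. Genotype and list size cannot be told apart there. The Del(CBS1-2) H3K27ac samples of both stages were also labelled under cell line, and those of wt and Del(CBS1) under cell type. This label and the Del(CBS1-2) genotype cannot be told apart either. The 96 h to 120 h change of Wnt8a was −8.85 in wt and −3.48 in the mutants, a difference of 5.37 (exact permutation p = 0.0253, adjusted p = 0.537, tested after the values were seen), and for the other 5 genes the adjusted p was at least 0.593.

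H3K27me3, the Polycomb mark of silenced developmental genes, split the 6 genes. Wnt3a, Wnt5b and Wnt11 had it within 1 kb of a start in all 6 wt lists, as did 11.3% of all genes, and Wnt5a and Wnt8a had it at a start in none, as did 74.2%. Wnt3 had none at its start at 72 h and a region there in all 5 later lists. H3K27me3 covered 0.784% of the Wnt3 window at 72 h, 6.28%, 7.20% and 7.86% in the 3 lists of 96 h, and 11.4% and 8.25% at 120 and 144 h. The lists of 72, 120 and 144 h covered 4.71, 9.20 and 5.76 Mb of the genome and those of 96 h 6.51 to 8.54 Mb, so the last list was closest to the first in size. Over Wnt11 it covered 1.77% at 72 h, 4.03%, 5.12% and 5.603% in the lists of 96 h, and 6.36% and 4.52% at 120 and 144 h. Over Wnt3a it covered 2.07% at 72 h, 1.10%, 2.73% and 3.11% in the lists of 96 h, and 3.69% and 3.32% at 120 and 144 h. Wnt5b had 0.828% to 1.12% covered in all 6 lists. Wnt5a had 1.82% covered at 72 h, in its intron, and none later. With 1 list at 3 of the 4 stages, no test was made.

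Both marks were called around the same start in several lists. At Wnt3a the fold enrichment of H3K27me3 at the start was highest at 120 h (5.65, within the top 5.42% of that list), the stage at which H3K27ac was missing from the start in all 3 lists, and nearly as high in 1 list at 96 h (5.54), when H3K27ac was present in all 3. At Wnt5b, H3K27ac summits of the distal start lay upstream in most lists (−226 in the strongest) and the H3K27me3 summit inside the gene, at 1129 in the strongest. In Del(CBS1-5) stembryos at 96 h, H3K27me3 was at a start of the same 4 genes as in wt (Wnt3, Wnt3a, Wnt5b and Wnt11) in both lists, with coverage of 1.19% and 3.55% for Wnt3 against 6.28% to 7.86% in wt. At −log10 q of at least 5 it was at the start of Wnt5b alone in both Del(CBS1-5) lists, and of 3 or 4 genes in the wt lists of 96 h. The Del(CBS1-5) lists covered 4.26 and 7.52 Mb of the genome, with lowest backgrounds of 1.43 and 2.47 fragments per base. The wt lists of 96 h covered 6.51 to 8.54 Mb, with lowest backgrounds of 1.89 to 2.99. The part of list size in these values was not tested. Del(CBS1-5) cells also differ from wt in strain, and strain and deletion cannot be told apart. The Wnt3a promoter is shown as an example of dense CpG, marked in capitals (chr11:59290702-59291001, minus strand). It holds 45 CpG in 300 bases and 86.3% G and C, where the median promoter of the table had 7 and 52.7%. The first starts of Wnt5b (47 and 78%) and Wnt11 (45 and 71.3%) are as dense in CpG, with a lower share of G and C.
Wnt3a: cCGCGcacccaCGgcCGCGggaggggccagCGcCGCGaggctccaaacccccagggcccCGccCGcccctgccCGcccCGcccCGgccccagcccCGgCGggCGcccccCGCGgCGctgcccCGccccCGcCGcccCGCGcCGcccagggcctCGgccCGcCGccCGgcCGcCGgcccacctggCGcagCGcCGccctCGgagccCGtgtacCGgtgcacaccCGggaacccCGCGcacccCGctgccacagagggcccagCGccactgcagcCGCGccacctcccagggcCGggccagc

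**Figure D4:**
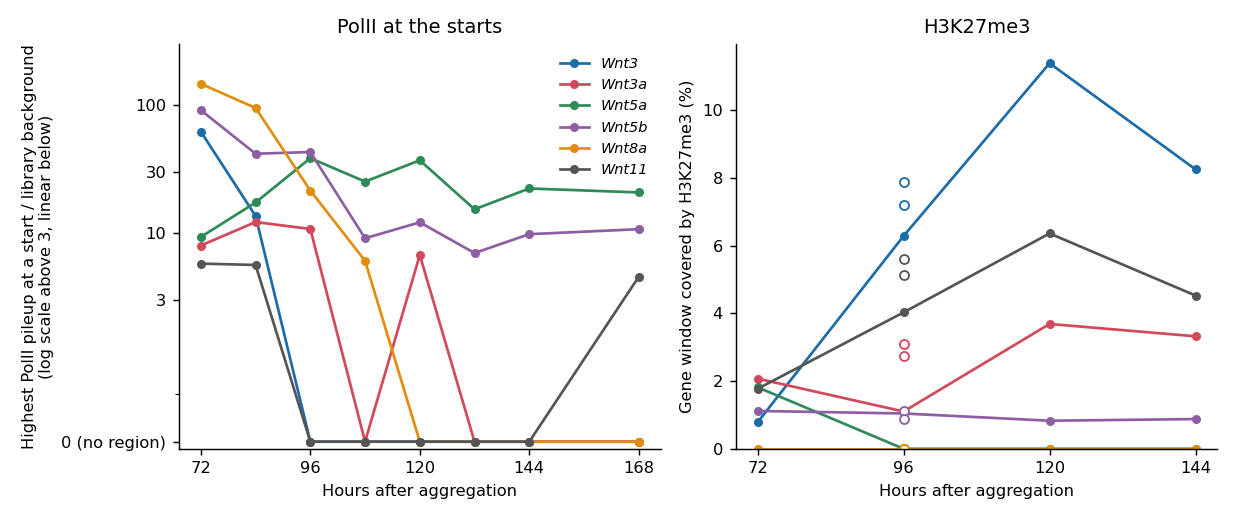
Left, the highest PolII summit within 1 kb of a start, in fragments over the lowest background of its list (log scale above 3, linear below, 0 where no region was called); right, the percentage of each gene window covered by H3K27me3; both against hours after aggregation in wt, 1 point per list, open circles for numbered replicates. The PolII summit of Wnt8a goes from 146 times background at 72 h to no region from 120 h, and H3K27me3 over Wnt3 from 0.784% at 72 h to 11.4% at 120 h.

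CTCF, which with cohesin anchors chromatin loops, had a region in the window of all 6 genes in both wt lists, as did 74.9% of all genes. A CTCF matrix of 20 bases was learnt from 1500 sites shared by the wt lists, with its threshold set where 5% of positions 1 kb away passed, and 93.2% of 1500 other shared sites passed it. Upstream of Wnt8a, a CTCF region at −3980 (fold enrichment 13.7, top 4.11% of its list) was shared by 16 of 16 wt RAD21 lists and all 6 mutant CTCF lists, with its motif on the strand of the gene. In Wnt5a the constant site lay in an intron at 2937 (fold 13.5, top 3.74%, 16 of 16 RAD21 lists), with its motif on the opposite strand. Wnt3a had 5 CTCF regions in both wt lists, from 51578 past the gene (fold 13.8, top 3.98%, 16 of 16 RAD21 lists) to −9636 upstream. Wnt3 had 1 in both lists, at −10236, also in 16 of 16 RAD21 lists. In Wnt11, the regions at 1741 (13 of 16 RAD21 lists) and 2941 (16 of 16) lay between its 2 starts, both with their motif opposite to the gene. Wnt5b had 11 regions in both wt lists over its long window, among them one at −417 of its distal start, in 15 of 16 RAD21 lists and 4 of 6 mutant CTCF lists. A match to the matrix was found in 6 of these 11 regions and in all regions of the other 5 genes called in both wt lists.

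One site beside the distal Wnt5b start, the pair between the Wnt11 starts and the strongest pair around Wnt3a are shown in the direction of the gene, with the matrix match in capitals and coordinates of the GRCm38 reference. The Wnt5b site is chr6:119544704-119544824 (minus strand), the Wnt11 sites are chr7:98836793-98836913 and chr7:98837993-98838113 (plus strand), and the Wnt3a sites are chr11:59293783-59293903 and chr11:59239114-59239234 (minus strand). The most frequent bases of the learnt sites begin GCCAC and, after any base, go on AGGGGGCGC. A match on the strand of the gene is therefore rich in G, as in Wnt3a at −3091, and one on the opposite strand rich in C, as in Wnt11 at 1741.
Wnt5b at −417: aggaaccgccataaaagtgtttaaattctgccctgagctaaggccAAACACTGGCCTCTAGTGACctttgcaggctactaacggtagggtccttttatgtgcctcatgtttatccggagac
Wnt11 at 1741: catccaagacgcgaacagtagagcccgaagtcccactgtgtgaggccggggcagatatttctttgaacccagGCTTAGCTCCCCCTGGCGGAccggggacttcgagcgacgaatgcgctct
Wnt11 at 2941: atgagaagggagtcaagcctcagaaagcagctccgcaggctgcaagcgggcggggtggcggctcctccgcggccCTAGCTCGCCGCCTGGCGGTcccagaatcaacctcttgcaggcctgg
Wnt3a at −3091: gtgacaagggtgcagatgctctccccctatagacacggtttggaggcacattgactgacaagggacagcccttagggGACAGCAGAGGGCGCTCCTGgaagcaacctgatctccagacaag
Wnt3a at 51578: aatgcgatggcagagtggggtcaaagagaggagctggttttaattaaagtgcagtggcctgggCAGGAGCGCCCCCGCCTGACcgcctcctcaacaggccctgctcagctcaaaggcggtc

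CDX2, a homeobox factor of the posterior axis, had no region in any of the 6 windows at 72 h, when its list held 147 regions in all. At 96 h it had a region in the windows of 5 genes, all but Wnt11, against 11.2% of all genes, and at 120 h in those of Wnt5a and Wnt8a, against 5.69%. These windows differ in length, from 25961 bases for Wnt8a to 131817 for Wnt5b, and the lists held 4501 regions at 96 h and 2272 at 120 h. The strongest was upstream of Wnt5a, at −3293 with 56 fragments and a fold enrichment of 10.52 (top 3.89% of the 96 h list), and again at −3259 at 120 h with 43 fragments and 8.24-fold (top 9.78%). NIPBL was called at that place in 5 of 8 lists between 96 h and 168 h, and H3K27ac on both sides of it, at −3756 and −2787, at 96 h and 120 h alone in wt. Wnt5b had CDX2 summits at the proximal start (94874 and 94693), in the intron (98538) and at −474 of the distal start. At Wnt8a the 96 h summit lay at −800, beside a CTCF region at −808 called at 72 h and not at 168 h and a RAD21 region at −823 called in 3 of 16 lists between 72 h and 96 h, and NIPBL lay at −825 at 84 to 108 h. The Wnt3 summit (35282) and the Wnt3a summits (46679 and 48018) were in an intron and past the 3′ end.

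The letters TTTATNG were within 50 bases of 29.6% of all CDX2 summits at 96 h and of 5.33% of positions 500 bases away. Of the 96 h summits of these Wnt genes, those at −3293 of Wnt5a and at 94693 and −474 of Wnt5b had a match. The others, among them all those of Wnt3, Wnt3a and Wnt8a, had none. The window at the distal Wnt5b start is shown because its match (capitals) lies 11 bases from the summit and beside the CTCF site printed above, where the same letters read ccataaa near the left end (chr6:119544771-119544871, plus strand, opposite to the gene).
Wnt5b CDX2 at −474: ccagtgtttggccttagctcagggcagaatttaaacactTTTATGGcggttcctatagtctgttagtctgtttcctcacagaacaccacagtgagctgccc

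**Figure D5:**
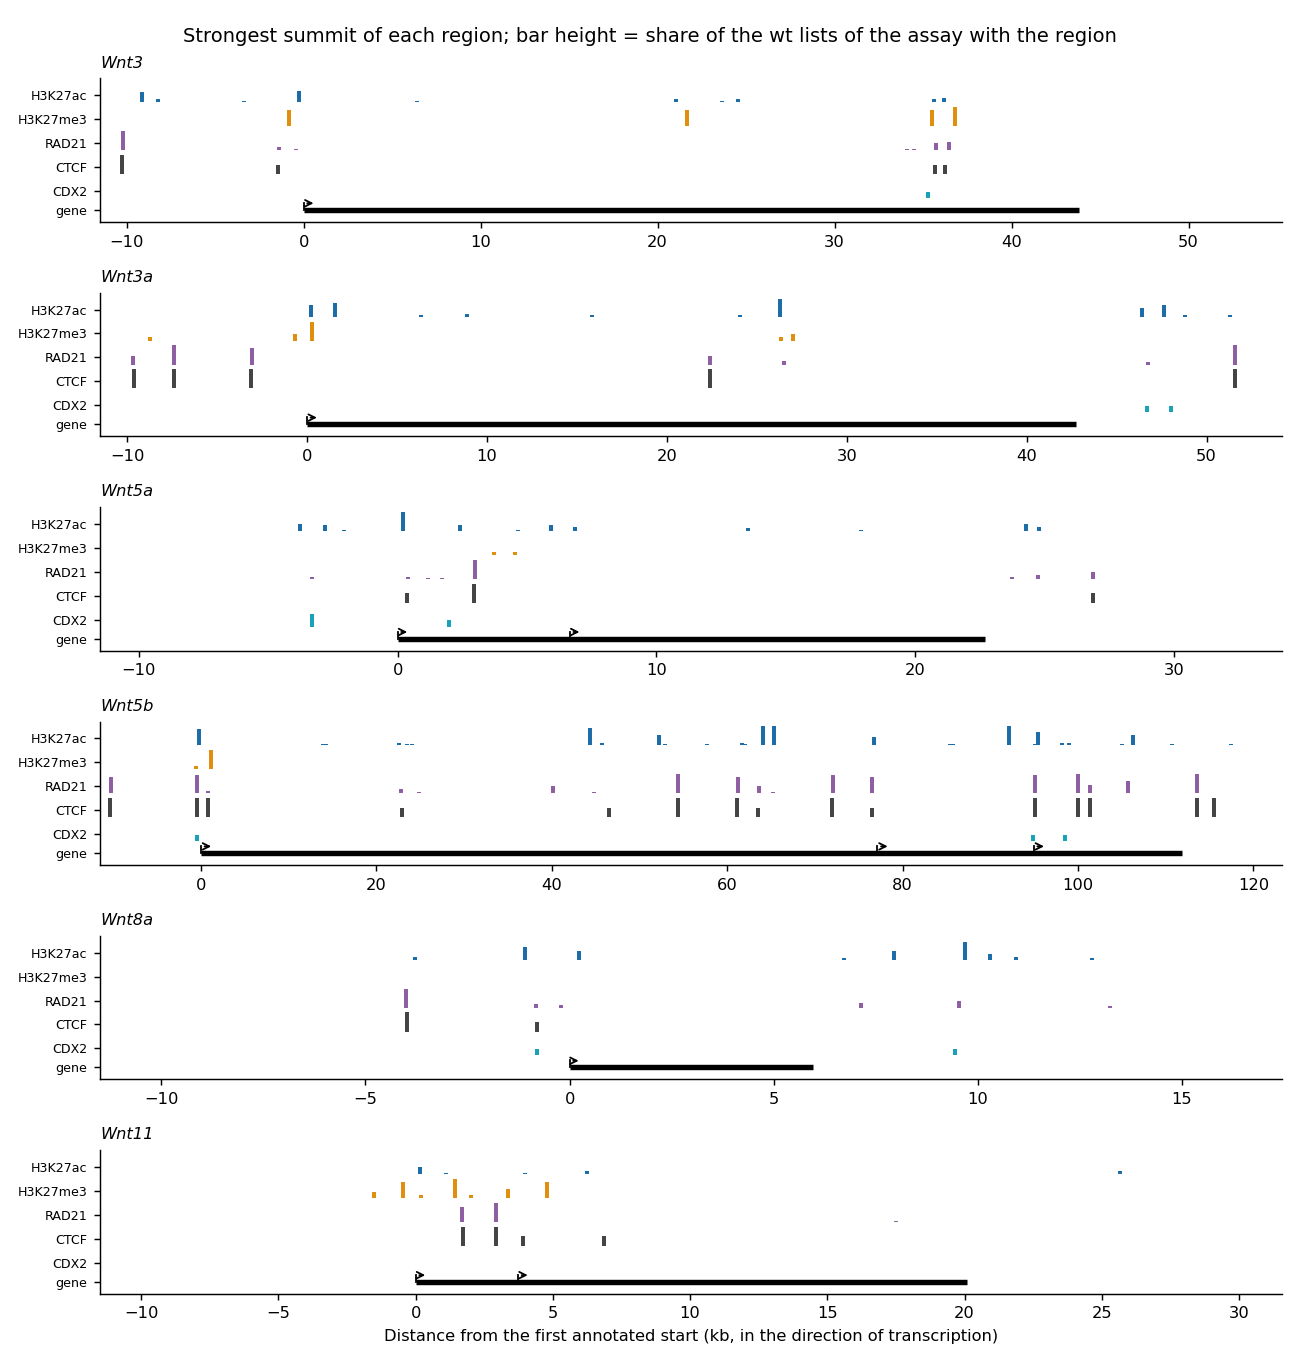
Strongest summits of the H3K27ac, H3K27me3, RAD21, CTCF and CDX2 regions around each gene in wt stembryos; the horizontal axis is the distance from the first annotated start in kb, in the direction of the gene, bar height is the share of the wt lists of an assay with the region, the black line is the gene and arrows mark annotated starts. CTCF and RAD21 regions coincide at −4.0 kb of Wnt8a and 2.9 kb of Wnt5a, and CDX2 regions lie at −3.3 kb of Wnt5a and beside the distal and proximal starts of Wnt5b.

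The genes whose coverage was most like that of each member over the 29 wt H3K27ac, PolII and NIPBL lists (Pearson's r of values centred within each assay, genes with windows overlapping the member left out) are a description with no test, since lists share their size across genes. For Wnt8a they were Baat (0.92), Plekhg6 (0.92) and Rtl8c (0.91). The others were Fbxw4 (0.88), Stau2 (0.88) and Ror2 (0.87) for Wnt5b, and Arhgef5 (0.86) and Snx19 (0.85) for Wnt3a. Last came Tmem102 (0.88), Gm39566 (0.86) and Fgf11 (0.85) for Wnt3, Gabra5 (0.86), Foxa2 (0.83) and Lpin3 (0.81) for Wnt11, and Paf1 (0.83), Tmem87b (0.82) and Pkd2l2 (0.81) for Wnt5a.

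Of the 13 other Wnt ligand genes and the 17 genes of Wnt secretion and reception, none passed the H3K27ac or PolII relation with stage, where 4 and 3 of them had an unadjusted p under 0.05. The remaining list genes are named because they are few, after their values were seen. Between 96 h and 120 h (exact permutation test as above), Wnt16 (difference 4.33) and Wnt4 (1.35) rose and Wnt10a (−7.30) and Wnt6 (−5.17) fell, 4 of 12 ligands tested. Among secretion and receptor genes, Fzd8 (3.07), Fzd1 (1.62) and Ror1 (0.46) rose and Fzd5 (−1.94) and Fzd6 (−0.94) fell, 5 of 17. Of all genes tested 25.1% passed this comparison, so both counts were read against that share. In the NIPBL relation with stage Wnt1 (rho 0.97), Fzd2 (0.98), Fzd1 (0.95), Fzd8 (0.93) and Lrp5 (0.93) passed. These were 1 of 11 ligands and 4 of 17 secretion and receptor genes tested, against 5.36% of all genes. H3K27ac was at a start of Wls and of 8 of the 10 Fzd genes, of Lrp5, Lrp6, Ror2 and Ryk in all 13 wt lists. The same held for 44.2% of all genes. Of the other ligands, Wnt16 had it in the most lists (9 of 13), and Wnt1 and Wnt2b had it at 72 h alone.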

How the data were processed

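Chromatin of pooled stembryos was profiled by ChIP-seq (H3K27ac, H3K27me3, CDX2 and pSer2PolII) and by ChIPmentation, which tags chromatin with Tn5 (CTCF, RAD21, NIPBL and PolII), in 82 samples that gave 80 lists, as 3 pSer2PolII samples at 144 h were merged. The authors trimmed reads with cutadapt 1.16, aligned them to mm10 with Bowtie2 2.3.4.1, filtered them with SAMtools 1.8 and called regions per list with MACS2 2.1.1.20160309 without a control sample; the Ins(2xCBS-d4d8) list was mapped to an edited chromosome 2. Each deposited list gives fold enrichment (a ratio over local background), −log10 p-values, −log10 q-values and a score per summit; these are not counts. The fragment pileup was solved from the deposited fold and −log10 p within 0.001. No read totals were used, so depth is given by the lowest local background, in fragments per base, 2.85 to 4.30 for wt H3K27ac and 1.12 to 3.09 for wt PolII; a region missing from a list may lie below its calling threshold.

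Windows came from GENCODE vM21 (GRCm38) on 21 chromosomes. The H3K27ac relation used the 9 lists without a replicate number. Tests were exact two-sided permutation tests with Benjamini-Hochberg adjustment over all protein-coding genes with coverage, threshold 0.05, and were tested on simulated data. The study states that part of the replicates came from separate stembryo cultures, without saying which. So p-values measure the spread between these lists, which may be technical. In the 25 pairs of replicate lists compared, no peak was identical. All 6 members were named, with the 3 most alike genes of each (1 of those of Wnt3a is not reported here) and the 3 strongest genes per pathway list past the threshold in the H3K27ac or PolII relation; none passed. The members and lists were chosen with earlier results of these data known. Sequences are of the C57BL/6J reference, while the wt cells and their clones are of the 129 strain. Alternatives were equal list lengths, −log10 q of at least 5, other windows, Pearson's r, fewer stages, left-out replicates and the replicate block. Python 3.11.15, numpy 2.4.6, scipy 1.17.1, pandas 2.3.3 and matplotlib 3.10.9 were used.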

Additional observations from a re-analysis of the deposited data

How the results depend on the processing

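Of 427 values of the 6 genes recomputed under the alternatives, 416 were counted as unchanged, 44 of them with another sign but not past the threshold in either setting. Another 11 kept their direction and no longer passed, and none that had passed turned sign. For wt alone, where no gene passed, a value counted as unchanged if it moved by less than the SD of the 120 h lists. Wnt8a, Wnt3a and Wnt5b were counted so, although their adjusted p by the exact permutation test within wt was 0.306. Counts over all genes moved more. In the H3K27ac relation 756 genes passed, and 17 with equal list lengths, 17 with −log10 q of at least 5, 338 with the gene body plus 2 kb, 0 with 1 kb around starts, 2221 with Pearson's r, 0 without the 48 h and 168 h lists and 1150 with the mean of all wt lists at 96 h and 120 h. In the NIPBL relation 920 passed, and 0 with equal list lengths, 0 with −log10 q of at least 5, 2487 with Pearson's r and 0 without the 72 h and 168 h lists. Between 96 h and 120 h 4406 passed, and 2713 with −log10 q of at least 5 and 734 with 1 kb around starts; with 1 list left out the count was 3573 to 4526. With the replicate block 0 passed; the smallest exact p it allows is 0.0156, and the adjusted p was then 0.0680 for Wnt3a and Wnt8a and 0.0967 for Wnt5b. Deviations of same-numbered lists correlated at −0.0073 in Del(CBS1) and 0.0437 in Del(CBS1-2), and at 0.164 to 0.382 in wt, so the numbers were not taken as pairs. NIPBL at a start was called in 18 of 48 pairs of a gene and a list, and in 10 with −log10 q of at least 5. The causes of these moves were not tested.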
